A study of Mus musculus with 9 samples.

Results

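The genes described here carry out the recovery of the photoresponse and its calcium feedback. They are the guanylate cyclases Gucy2e and Gucy2f, the cyclase activators Guca1a and Guca1b, the visual pigment kinase Grk1, recoverin Rcvrn, the RGS9 complex genes Rgs9, Rgs9bp and Gnb5, and the exchanger gene Slc24a1. These 10 genes were chosen by function, by matching their symbols among the 22337 genes of the table, and each matched 1 row. Earlier results of these data were known when they were chosen. Expression was measured by RNA-seq in retinas at P28 with 3 libraries per group. WT were C57BL/6J mice that received no injection. The other groups were rd10 mice, which carry a homozygous missense mutation in Pde6b, the beta subunit of the rod phosphodiesterase. Littermates among them received either NS (normal saline) or MSC-EVs, extracellular vesicles from human umbilical cord mesenchymal stem cells, 1 µL per eye at P14 and at P21. The injection is given as into the vitreous, although a label also calls it intravenous. WT therefore differed from both rd10 groups in genotype, source and injection, and these cannot be told apart.

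Light closes cation channels in the photoreceptor outer segment by lowering cyclic GMP, and calcium entry falls while the exchanger goes on removing calcium. Recovery needs several steps. The activated visual pigment is phosphorylated by its kinase, transducin is switched off by the RGS9 complex, and cyclic GMP is made again by the retinal guanylate cyclases. The fall of calcium speeds this up, since the calcium sensors GCAP1 and GCAP2 (from Guca1a and Guca1b) then stimulate the cyclases and recoverin releases the kinase. Mutations in several of these genes cause retinal dystrophy or slowed recovery from light.

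The estimated counts per library summed to between 19491721 and 62532357, with MSC-EVs replicate 3 the deepest, and the least expressed of the 10 genes, Gucy2f, had at least 1233 counts in every library. All 10 passed the filter on low counts. Levels are given as CPM (counts relative to library size, scaled by edgeR's TMM factors) for a gene between libraries, and as FPKM, which also divides by transcript length, between genes. The labels do not say whether the libraries of a group came from separate animals, so p-values measure the spread between these libraries. In whole retina, fewer rods and less RNA per rod cannot be told apart. The level of Pde6b was lower in NS-treated rd10 by -2.23 on the log2 scale (edgeR adjusted p = 3.02e-08), which checks nothing about a missense mutation. The Y-linked genes Kdm5d, Uty, Ddx3y and Eif2s3y summed to 183 and 188 CPM in MSC-EVs replicates 1 and 2 and to at most 0.501 CPM in the other libraries. The labels give no sex. Markers of other cells also differed between NS-treated rd10 and WT, where genotype, source and injection cannot be told apart. In this comparison 1863 of the 14644 genes tested were differentially expressed in either direction. All 10 microglia and macrophage markers were differentially expressed, with higher levels in NS-treated rd10, with summed levels of 40.6 to 43.9 CPM in WT, 307 to 381 CPM after NS and 259 to 460 CPM after MSC-EVs. Of 9 Müller glia markers 5 were differentially expressed and higher. Of 8 retinal pigment epithelium markers 2 were, and their summed level was 58 to 104 CPM in WT, 253, 62.4 and 173 CPM after NS and 87.6, 73.5 and 215 CPM after MSC-EVs. Their part in the results below was not tested.

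Photoreceptor genes are commonly bound by the homeobox factor CRX and the leucine zipper factor NRL, and the promoters of the members were searched for their elements. Whether these elements have a part in the levels given below was not tested. RefSeq start sites on GRCm38.p6 gave a window of 250 bases before and 50 bases after the start for 7 of the 10 genes. Both strands were searched for the OTX/CRX core GGATTA (on the other strand, TAATCC) and the NRL element TGCTGA (on the other strand, TCAGCA), and no window of a member held both. The core was present in 4 of the 7 windows, against 7.1% of 32851 promoters of the same length. It was also in 3 of 5 windows of the rod activation genes and in 1 of 6 of the cone cascade genes. The NRL element was present in 2 of the 7, those of Grk1 and Rgs9, against 19.5% of all promoters. Positions are counted from the start site as 0. Gucy2e has the core at -42, Gucy2f at -84 and -59, Guca1a at -57 and Gnb5 at -6. Rgs9, whose window lacks the core, was the member whose rd10 libraries did not overlap between treatments, as in 26.2% of all genes tested. The windows of the 4 genes with the core are shown with the core in capitals, beside that of Rgs9. They are chr11:69236973-69237272 (minus strand) for Gucy2e, chrX:142196887-142197186 (minus strand) for Gucy2f, chr17:47400557-47400856 (minus strand) for Guca1a, chr9:75306038-75306337 (plus strand) for Gnb5 and chr11:109298132-109298431 (minus strand) for Rgs9. Each is printed 5′ to 3′ on the strand of its gene.
Gucy2e: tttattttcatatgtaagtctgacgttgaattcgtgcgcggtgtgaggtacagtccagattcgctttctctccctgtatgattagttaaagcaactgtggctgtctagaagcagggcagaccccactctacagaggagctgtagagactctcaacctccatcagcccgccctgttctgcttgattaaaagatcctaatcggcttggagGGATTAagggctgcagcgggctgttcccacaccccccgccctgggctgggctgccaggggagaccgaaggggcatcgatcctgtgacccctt
Gucy2f: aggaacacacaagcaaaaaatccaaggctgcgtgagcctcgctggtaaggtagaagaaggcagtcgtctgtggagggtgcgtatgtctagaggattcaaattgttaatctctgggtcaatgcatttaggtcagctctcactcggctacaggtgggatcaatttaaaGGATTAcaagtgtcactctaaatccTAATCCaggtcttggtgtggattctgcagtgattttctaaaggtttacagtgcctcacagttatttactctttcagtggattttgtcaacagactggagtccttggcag
Guca1a: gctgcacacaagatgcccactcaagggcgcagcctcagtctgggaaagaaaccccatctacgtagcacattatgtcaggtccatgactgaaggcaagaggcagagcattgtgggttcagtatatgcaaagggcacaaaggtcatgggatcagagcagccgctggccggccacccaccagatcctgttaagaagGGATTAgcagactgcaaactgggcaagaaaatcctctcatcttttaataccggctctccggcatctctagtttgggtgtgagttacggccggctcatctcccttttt
Gnb5: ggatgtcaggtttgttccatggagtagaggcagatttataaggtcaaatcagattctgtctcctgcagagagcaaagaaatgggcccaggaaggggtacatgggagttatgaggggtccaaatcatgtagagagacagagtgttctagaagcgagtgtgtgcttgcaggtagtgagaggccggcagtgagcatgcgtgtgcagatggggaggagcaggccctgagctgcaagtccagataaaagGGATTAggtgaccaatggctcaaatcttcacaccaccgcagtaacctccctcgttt
Rgs9: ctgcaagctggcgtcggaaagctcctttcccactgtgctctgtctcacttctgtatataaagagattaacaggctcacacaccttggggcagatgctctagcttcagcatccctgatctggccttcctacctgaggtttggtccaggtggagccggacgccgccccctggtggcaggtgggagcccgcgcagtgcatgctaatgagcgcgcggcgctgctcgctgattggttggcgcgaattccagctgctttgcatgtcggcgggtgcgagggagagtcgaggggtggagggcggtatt
A match is a description of the letters and not a bound site. Of the genes with a core, Gnb5 kept 58.5% of its WT level in NS-treated rd10, Gucy2e 34.4%, Guca1a 33.5% and Gucy2f 26.8%. Of those whose window lacks one, Rgs9 kept 45.5%, Grk1 28.4% and Slc24a1 25.6%.

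In the WT retina the members spanned a wide range of levels per length. Rcvrn was the highest, at 780 ± 33.8 FPKM (SD, n = 3), followed by Guca1a at 663 ± 30.5, Guca1b at 596 ± 22.1, Gnb5 at 486 ± 12.9, Grk1 at 369 ± 13.4 and Slc24a1 at 299 ± 9.46 FPKM. Rgs9 at 203 ± 29.6 FPKM and Rgs9bp at 186 ± 4.19 FPKM overlapped between libraries, whereas every other pair of neighbours in this order was separated in all libraries. The cyclases were the lowest, with 106 ± 3.13 FPKM for Gucy2e and 28.2 ± 0.567 FPKM for Gucy2f. The activators of the cyclases were thus each more abundant per length than either cyclase.

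In NS-treated rd10 the order changed in its middle. Rcvrn at 349 ± 39.2 FPKM (SD, n = 3) and Gnb5 at 319 ± 11.8 FPKM overlapped at the top, and Guca1a followed at 251 ± 29.7 FPKM. Guca1b, next to Guca1a in WT, came to 115 ± 25.3 FPKM and overlapped with both Grk1 at 119 ± 10.6 and Rgs9 at 106 ± 24.2 FPKM. Below them were Slc24a1 at 86.7 ± 13.1, Rgs9bp at 51.4 ± 7.61, Gucy2e at 41.1 ± 4.47 and Gucy2f at 8.55 ± 1.09 FPKM. With MSC-EVs, Rgs9 came after Guca1a (241 ± 37.8 FPKM) with 160 ± 13.1 FPKM, overlapping with Guca1b at 133 ± 32.8 FPKM and with all its libraries above those of Grk1 at 132 ± 11.8 FPKM.

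All 10 members were lower in NS-treated rd10 than in WT. With edgeR's quasi-likelihood test on the 6 libraries, a gene was called differentially expressed at a Benjamini-Hochberg adjusted p under 0.05 over the 14644 genes tested and a change of at least 1 on the log2 scale in either direction. By this rule 9 of the 10 members were differentially expressed and lower, against 3.56% of all genes tested. The adjusted p alone was passed by 10 of 10 in this direction, against 30.1% of all genes, and the NS libraries all lay below the WT libraries in 10 of 10, against 33.4% of all genes. The median log2 fold change was -1.70 over the members and 0.01 over all genes tested. The member outside the fold limit was Gnb5.

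**Figure D1:**
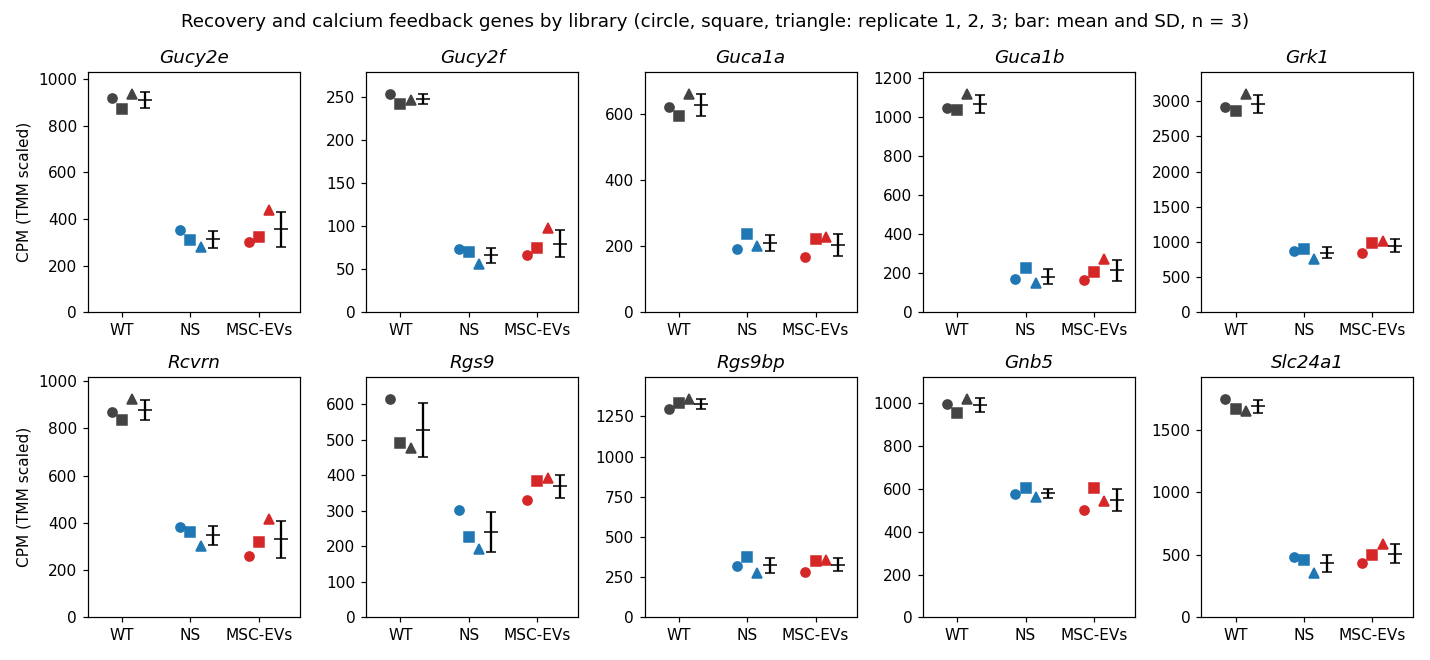
CPM (TMM scaled, linear axis from 0) of each of the 10 genes in every library of WT mice and of rd10 mice given NS or MSC-EVs, with the mean and SD (n = 3) beside the points. Every rd10 library lies below every WT library for each gene, and the NS-treated and MSC-EVs-treated libraries overlap for all genes except Rgs9. Over all genes tested, NS-treated and MSC-EVs-treated libraries were separated in 26.2%.

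Gucy2e and Gucy2f encode the membrane guanylate cyclases of the outer segment, GC-E (also called GC1) and GC-F (GC2), which make cyclic GMP. Gucy2e lies on chromosome 11 from 69218117 to 69237036 (GRCm38, minus strand). Its level was 919, 872 and 937 CPM in WT, 351, 309 and 278 CPM after NS and 303, 323 and 440 CPM after MSC-EVs. The rd10 groups overlapped, and the highest rd10 library was MSC-EVs replicate 3. NS against WT gave -1.54 log2 units (standard error 0.08, edgeR adjusted p = 2.53e-08), so that 34.4% of the WT mean was left. Gucy2f, on chromosome X from 142081160 to 142196931, had 254, 242 and 247 CPM in WT, 73.1, 69.6 and 56.4 CPM after NS, and 67, 74.8 and 97.4 CPM after MSC-EVs. It was 3.72-fold lower in NS-treated rd10 than in WT (log2 fold change -1.90, standard error 0.09, edgeR adjusted p = 2.29e-08). As with Gucy2e, MSC-EVs replicate 3 was the highest rd10 library and the other treated libraries lay within or next to the NS range.

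Guca1a and Guca1b lie tail to tail on chromosome 17, on opposite strands with 1590 bases between their ends. Guca1b runs from 47385393 to 47392967 and Guca1a from 47394558 to 47400584. Guca1a had 622, 595 and 661 CPM in WT, 191, 237 and 200 CPM after NS, and 166, 220 and 226 CPM after MSC-EVs. Guca1b had 1047, 1035 and 1120 CPM in WT, 171, 227 and 150 CPM after NS, and 163, 207 and 272 CPM after MSC-EVs. In both genes the rd10 groups overlapped and lay far below WT. Guca1b, the gene of GCAP2, had the lowest remaining level of the 10 members, 17.1% of the WT mean (log2 fold change -2.55, standard error 0.15, edgeR adjusted p = 2.44e-06). Guca1a, the gene of GCAP1, kept 33.5% of the WT mean (log2 fold change -1.58, standard error 0.08, edgeR adjusted p = 1.49e-08). The libraries of NS-treated rd10 kept between 14% and 21.3% of WT for Guca1b and between 30.6% and 37.8% for Guca1a, without overlap.

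Grk1 encodes the kinase that phosphorylates the activated visual pigment so that arrestin can bind. It lies on chromosome 8 from 13405081 to 13421951, and 2.9% of the 50-base stretches of its transcripts also occur in other genes, so a small part of its reads may be assigned differently. Grk1 had the highest CPM of the members, with 2920, 2869 and 3108 in WT, 877, 897 and 752 with NS, and 844, 978 and 1016 with MSC-EVs. It was 3.52-fold lower with NS than in WT (log2 fold change -1.82, standard error 0.08, edgeR adjusted p = 4.21e-09). Rcvrn, on chromosome 11 from 67695326 to 67703333, encodes the calcium sensor that holds the kinase back in the dark. Its level was 871, 838 and 925 CPM in WT, 381, 360 and 301 CPM after NS, and 259, 319 and 415 CPM after MSC-EVs. Among the rd10 libraries, MSC-EVs replicates 1 and 3 were the lowest and the highest, so that the treated libraries enclosed the NS libraries. Rcvrn kept 39.5% of the WT mean (log2 fold change -1.34, standard error 0.08, edgeR adjusted p = 1.33e-07), where Grk1 kept 28.4%.

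The RGS9 complex speeds the hydrolysis of GTP by transducin. It consists of the GTPase-activating protein RGS9, its partner Gβ5 from Gnb5, and the membrane anchor R9AP from Rgs9bp. The complex is unstable when a subunit is lacking. What was left of the transcripts differed in size between its genes. Rgs9bp, on chromosome 7 from 35578993 to 35585582, had 1297, 1330 and 1358 CPM in WT, 318, 375 and 279 CPM after NS, and 282, 348 and 356 CPM after MSC-EVs, and was 4.1-fold lower with NS than in WT (log2 fold change -2.04, standard error 0.10, edgeR adjusted p = 2.67e-08). Gnb5, on chromosome 9 from 75306288 to 75345876, had 999, 956 and 1021 CPM in WT, 576, 604 and 562 CPM after NS, and 500, 604 and 545 CPM after MSC-EVs. It kept 58.5% of the WT mean, the most of the 10 members, and the fitted change of -0.77 log2 units (standard error 0.06, edgeR adjusted p = 3.24e-07) passed the adjusted p but not the fold limit. Gnb5 is also used by other retinal neurons, where Gβ5 pairs with the other R7 RGS proteins, and 248 of its 3115 exonic bases overlap Gm19531 on the other strand. Whether reads were counted by strand is not given in the sources used here, so reads of this pair cannot be told apart there.

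Rgs9, on chromosome 11 from 109225355 to 109298129, had 614, 489 and 477 CPM in WT and 302, 225 and 192 CPM after NS. With MSC-EVs it had 331, 383 and 391 CPM. The 3 groups did not overlap at any point, with NS the lowest and the treated libraries between NS and WT. WT replicate 1 and NS replicate 1 stood above the others of their groups, and the coefficient of variation was 14.3% in WT and 23.6% with NS, where the other members had at most 5.3% in WT. NS against WT gave -1.13 log2 units (standard error 0.20, edgeR adjusted p = 0.00434). This call was close to the fold limit and was lost without NS replicate 3, at -0.99, and with limma on log2(FPKM + 1), at -0.95.

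Slc24a1 encodes the sodium, potassium and calcium exchanger of the rod outer segment (NCKX1), which removes the calcium that enters through the channel. It lies on chromosome 9 from 64922861 to 64951607. Its level was 1747, 1669 and 1647 CPM in WT, 480, 461 and 355 CPM after NS, and 435, 501 and 587 CPM after MSC-EVs. NS replicate 3 was the lowest and MSC-EVs replicate 3 the highest of the rd10 libraries. It was 3.9-fold lower with NS than in WT (log2 fold change -1.96, standard error 0.11, edgeR adjusted p = 1.37e-07).

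**Figure D2:**
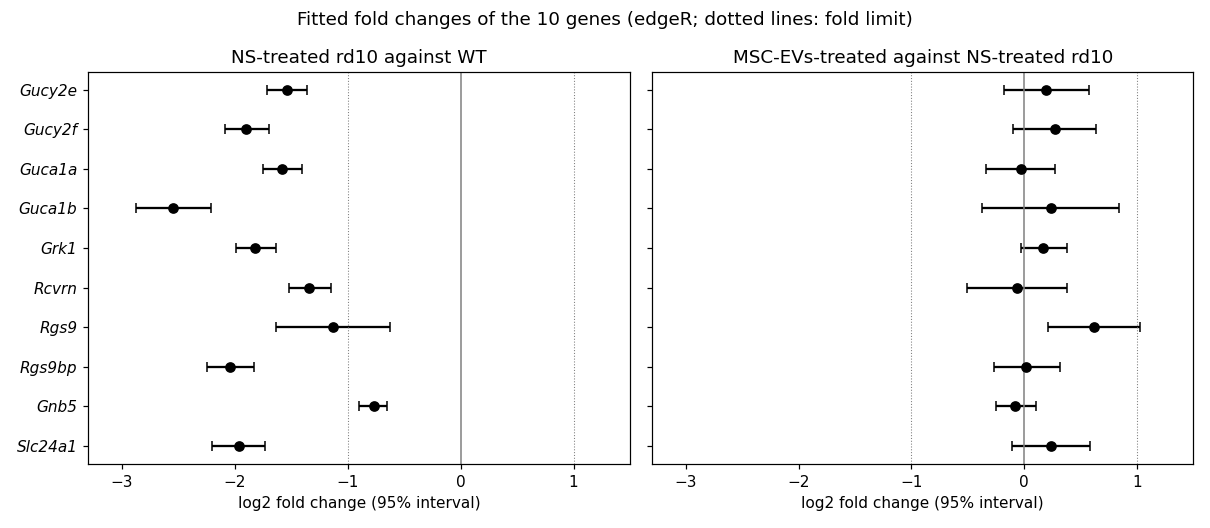
Log2 fold changes of the 10 genes with their 95% intervals (edgeR, n = 3 libraries per group), for NS-treated rd10 against WT on the left and MSC-EVs-treated against NS-treated rd10 on the right, with dotted lines at the fold limit. On the left all points lie below 0, from -2.55 for Guca1b to -0.77 for Gnb5, and on the right the interval of Rgs9, from 0.21 to 1.03, is the one that leaves out 0.

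With MSC-EVs, none of the 10 members was differentially expressed against NS. Over the 14765 genes tested, 0 of 10 passed the adjusted p and the fold limit, where 0.061% of all genes did, and 0 of 10 passed the adjusted p alone, where 1.16% did (edgeR). At an unadjusted p under 0.05 there was 1, Rgs9, with no share of all genes set beside it. DESeq2's Wald test also gave 0 with the fold limit and 1, again Rgs9, without it. The treated and NS libraries were fully separated in 1 of 10, against 26.2% of all genes. The log2 fold change was above 0 in 7 of 10, with a median of 0.18, where the median of all genes was 0.00.

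The change of Rgs9 with MSC-EVs was 0.62 log2 units (standard error 0.17, 95% interval 0.21 to 1.03), a 1.54-fold higher level, with an unadjusted p of 0.00915 and an adjusted p of 0.122 in edgeR's quasi-likelihood test. It was higher in 3 of 3 treated libraries than in any NS library. Over 15 other settings its adjusted p ran from 0.000639 (DESeq2's Wald test) to 0.327 (without NS replicate 2), and it was under 0.05 in 2 of them, with DESeq2 and without NS replicate 1 (0.0203). The log2 fold change stayed between 0.48 and 0.82 in all of these. Y-linked expression sets MSC-EVs replicates 1 and 2 apart from all other libraries. A fit with it as a covariate therefore takes the treatment difference in the main from MSC-EVs replicate 3. In that fit the log2 fold change of Rgs9 was 0.72, and without MSC-EVs replicate 3 it was 0.57.

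For the other members the intervals show which sizes of change these libraries leave possible. The interval ran from -0.18 to 0.57 on the log2 scale for Gucy2e, from -0.10 to 0.64 for Gucy2f, from -0.34 to 0.27 for Guca1a and from -0.37 to 0.84 for Guca1b. It was -0.03 to 0.38 for Grk1 and -0.51 to 0.38 for Rcvrn. Within the RGS9 complex it was -0.27 to 0.32 for Rgs9bp and -0.25 to 0.10 for Gnb5. For Slc24a1 it was -0.11 to 0.58. All 9 thus include 0 and leave out a change as large as the fold limit.

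The spread among the treated libraries followed the library. MSC-EVs replicate 1 was the lowest of its group in 10 of 10 members and MSC-EVs replicate 3 the highest in 9 of 10, and NS replicate 3 was the lowest of its group in 9 of 10. The rod activation genes moved in the same order, with a geometric mean of 715, 880 and 993 CPM in MSC-EVs replicates 1, 2 and 3 and of 856, 951 and 696 CPM in the NS libraries. Without MSC-EVs replicate 3 the log2 fold change with MSC-EVs was 0.01 for Gucy2e, 0.10 for Gucy2f, 0.02 for Guca1b, 0.12 for Slc24a1 and -0.26 for Rcvrn. With it, the values were 0.19, 0.27, 0.24, 0.24 and -0.06. Without MSC-EVs replicate 1, they were 0.29 for Gucy2e, 0.38 for Gucy2f, 0.40 for Guca1b, 0.34 for Slc24a1 and 0.09 for Rcvrn. Neither choice made a member differentially expressed. Without MSC-EVs replicate 1, 4 members had an unadjusted p under 0.05 in edgeR. No share of all genes was set beside this count, so it cannot be read against a background.

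Against WT, the MSC-EVs-treated retina had 8 of 10 members differentially expressed and lower, where 3.2% of the 14623 genes tested were. The adjusted p alone was passed by 10 of 10, against 27.2% of all genes, and the libraries were separated downward in 10 of 10, against 33.2%. The 2 members outside the fold limit were Gnb5, at -0.85 (standard error 0.07, edgeR adjusted p = 1.12e-05), and Rgs9, at -0.51 (standard error 0.11, edgeR adjusted p = 0.00454). Rgs9 stood at 69.9% of the WT mean with MSC-EVs and 45.5% with NS, and Gnb5 at 55.4% and 58.5%. Guca1b stood at 20.1% with MSC-EVs and 17.1% with NS, and the other 7 members at 24.7% to 39.1% with MSC-EVs and 24.4% to 39.5% with NS. This comparison shares its libraries with the comparisons above. With Y-linked expression as a covariate, the difference from WT also rests in the main on MSC-EVs replicate 3, so that fit cannot settle the level of Rgs9.

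To see whether a member fell more or less than rod transcripts, the counts were scaled to the geometric mean of 9 rod activation genes, among them Gnat1, Pde6a, Pde6b, Cnga1 and Cngb1, in place of the library total. All 9 of these were differentially expressed and lower in NS-treated rd10, with a median log2 fold change of -1.79. On this scale the median of all genes moved to 1.93, and that of the members was 0.22, so the members stayed near the rod genes. Gnb5 was the 1 member called higher, at 1.15 (standard error 0.16, edgeR adjusted p = 1.07e-12), where 95.3% of all genes were. In either direction, 6 of 10 members passed the adjusted p, against 98.4% of all genes. This count was 4 without any 1 of the WT libraries and 4 with a replicate block. The 9 rod genes themselves lay between -0.41 and 0.31 on this scale, and 2 of them passed the adjusted p.

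Relative to the rod genes, Rgs9 was higher by 0.77 on the log2 scale, Rcvrn by 0.57, Gucy2e by 0.38 and Guca1a by 0.34, each past the adjusted p (edgeR, 1.69e-06, 0.000343, 0.019 and 0.036). Since 98.4% of all genes passed on this scale, the adjustment changed little (unadjusted edgeR p of 1.57e-06, 0.00033, 0.0186 and 0.0354). The calls of Gucy2e and Guca1a were lost without any 1 of the WT libraries, with edgeR adjusted p of 0.0731 to 0.0867 and of 0.0901 to 0.133. They were also lost with the replicate block, at 0.0572 and 0.0899, and that of Gucy2e without NS replicate 1, at 0.111. Guca1b was lower by -0.65 (standard error 0.16, edgeR adjusted p = 5.63e-05), and it was the 1 member that passed in this direction. The values of Grk1, Gucy2f, Slc24a1 and Rgs9bp were 0.10, 0.01, -0.06 and -0.13, and none of these passed. Their 95% intervals were -0.21 to 0.41, -0.31 to 0.33, -0.37 to 0.25 and -0.44 to 0.18. The standard error was 0.16 for each member and each rod gene here, so these p-values and intervals do not measure each gene's own spread. For Rgs9bp the NS libraries, at -0.20 to -0.09, all lay below those of WT, at -0.04 to 0.04. When the sum of the rod genes replaced the geometric mean, Rgs9bp and Slc24a1 turned to 0.13 and 0.20 and Rgs9 reached 1.04, so that 2 members were called higher. With that sum Grk1 was at 0.36 and passed the adjusted p (edgeR, 0.0496), Guca1b was at -0.39 (0.0336), and 7 of 10 members passed. Between NS and MSC-EVs on this scale, 0 of 10 members were called, where 0.257% of all genes were, and 0 passed the adjusted p, where 0.325% did. The value of Rgs9 was 0.58 (95% interval 0.13 to 1.02) with an unadjusted p of 0.0119 and an adjusted p of 0.621 from edgeR. The standard error was 0.23 for each member there, again not the spread of the single gene.

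**Figure D3:**
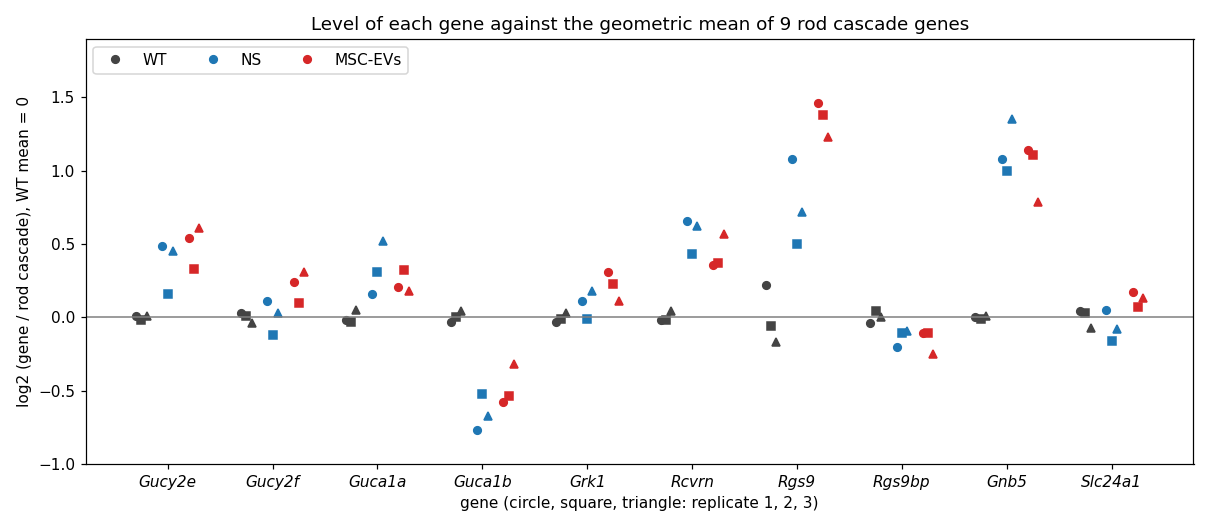
Log2 level of each of the 10 genes in every library after division by the geometric mean of 9 rod activation genes in that library, with the WT mean set to 0. Guca1b lies below 0 in all rd10 libraries, from -0.77 to -0.32, Gnb5 and Rgs9 lie highest, from 0.79 to 1.35 and from 0.50 to 1.46, and Gucy2f, Grk1, Rgs9bp and Slc24a1 stay between -0.25 and 0.31.

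Ratios between partner genes within a library do not depend on the scaling of the library. The ratio of Guca1a to Guca1b in FPKM was 1.13, 1.09 and 1.12 in WT, 2.12, 1.98 and 2.54 with NS, and 1.94, 2.01 and 1.58 with MSC-EVs. The near balance of the activators in WT thus gave way to an excess of Guca1a transcripts in every rd10 library. The ratio of Gucy2e to Gucy2f was 3.67 to 3.85 in WT, 4.53 to 5.04 with NS and 4.52 to 4.69 with MSC-EVs. That of Grk1 to Rcvrn was 0.47 to 0.479 in WT, 0.323 to 0.349 with NS, and 0.456, 0.429 and 0.343 with MSC-EVs, where the treated libraries spread over most of the distance between the other groups.

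Rgs9 was more abundant against its anchor in rd10 than in WT, in every library. The ratio of Rgs9 to Rgs9bp was 1.31, 1.01 and 0.965 in WT, 2.65, 1.66 and 1.91 with NS and 3.26, 3.04 and 3.04 with MSC-EVs, with no overlap between any of the groups. The ratio of Rgs9 to Gnb5 was 0.485, 0.403 and 0.368 in WT, 0.421, 0.299 and 0.276 with NS, and 0.53, 0.505 and 0.573 with MSC-EVs, which placed the treated libraries above both other groups. Over the 5 ratios and 3 comparisons, 11 of 15 did not overlap. Each of these 11 had an exact two-sided permutation p of 0.1, the smallest that 3 libraries against 3 allow, and a Benjamini-Hochberg adjusted p of 0.136 over the 15, so none passed 0.05.

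**Figure D4:**
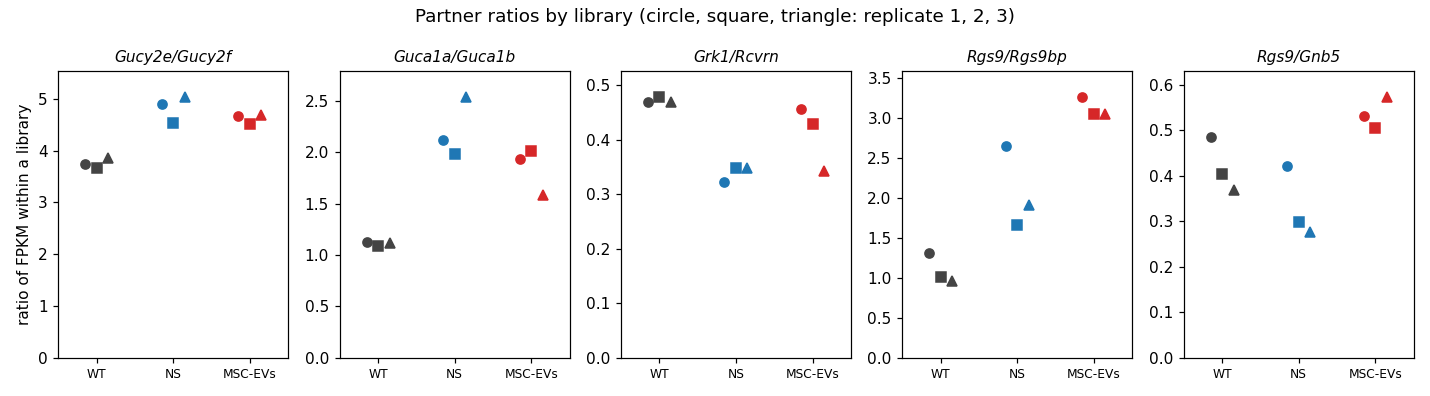
Ratio of FPKM of partner genes within each library (linear axis from 0) in WT mice and in rd10 mice given NS or MSC-EVs, 3 libraries per group. The Guca1a to Guca1b ratio is 1.09 to 1.13 in WT and 1.58 to 2.54 in rd10, and the Rgs9 to Rgs9bp ratio is 0.965 to 1.31 in WT and 3.04 to 3.26 with MSC-EVs.

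Other genes of the pathway were grouped as rod recovery and calcium genes outside the 10. Of these 9 genes, 5 were differentially expressed and lower in NS-treated rd10, with a median log2 fold change of -1.05 over the list. They were Pdc (phosducin, which binds the transducin beta and gamma subunits) at -2.10, Cabp4 (a calcium sensor of the photoreceptor synapse) at -1.73, Ppef2 (a photoreceptor phosphatase) at -1.69, Sag (rod arrestin) at -1.16 and Rd3 (which inhibits the cyclases and carries them to the outer segment) at -1.05. Of all 14644 genes tested, 8972 passed the adjusted p in either direction, 4410 of them lower. In the list, another 3 passed it with higher levels in NS-treated rd10, without reaching the fold limit. Among them were Slc24a2, an exchanger of the same family as Slc24a1, at 0.46 and Atp2b1 (a plasma membrane calcium pump) at 0.18. With MSC-EVs against NS, 0 of these 9 genes were differentially expressed and 1 passed the adjusted p alone, where 0.061% and 1.16% of all genes did. This was Atp2b1, at 0.47 (standard error 0.07, edgeR adjusted p = 0.0252), with 379, 361 and 368 CPM after NS and 546, 475 and 509 CPM after MSC-EVs.

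Of 6 R7 RGS genes and their anchors, which serve bipolar cells and other neurons, 5 passed the adjusted p and were higher in NS-treated rd10. Of these 6 genes 0 reached the fold limit, and the median was 0.41. By the adjusted p, 8972 of all 14644 genes tested passed in either direction, 4410 of them lower. Rgs6 was at 0.56 and Gpr158 at 0.52, next to -1.13 for Rgs9 and -2.04 for Rgs9bp. Of 9 cone cascade genes, 0 were differentially expressed, with 3 higher (Gnb3 at 0.90, Pde6c at 0.40 and Cngb3 at 0.35) and 3 lower (Opn1sw at -0.58, Opn1mw at -0.51 and Gnat2 at -0.37) by the adjusted p alone. In the rod list and the paralog list alike, the G protein subunit Gnb1 was lower by -1.79 (edgeR adjusted p = 3.02e-08).

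Of the 24 paralogs of the members, 22 were tested. In NS-treated rd10, 1 was differentially expressed and higher, Gnb2 at 1.11, and 1 lower, Gnb1. By the adjusted p alone 10 were higher and 3 lower, where 8972 of all 14644 genes passed in either direction, 4410 of them lower. The median over the paralogs was 0.23. With MSC-EVs against NS, 0 of the 22 paralogs were differentially expressed and 1 passed the adjusted p alone, where 0.061% and 1.16% of all genes did. It was Slc24a4, another exchanger of the same family, at 0.78 (standard error 0.10, edgeR adjusted p = 0.0209), with 47.1, 37.2 and 44.7 CPM after NS and 79.4, 67.6 and 73.9 CPM after MSC-EVs.

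The genes whose profile over the 9 libraries was nearest to the median of the members were sought among 12245 genes, by the root mean square difference of log2 levels relative to WT. They were Tulp1 at 0.065, Cngb1 at 0.072, Cep164 at 0.074, Fam161a at 0.081 and Cabp4 at 0.093. Tulp1 serves protein transport to the outer segment, Cngb1 is a subunit of the rod channel, and Cep164 and Fam161a encode proteins of the cilium. For single members, the nearest gene outside the 10 was Prph2 for Rgs9bp at 0.052, Abca4 for Gucy2f at 0.064, Rdh12 for Slc24a1 at 0.072 and Nrl for Guca1b at 0.165. Among the members themselves, Gucy2f and Slc24a1 were nearest to each other at 0.083. Guca1b had its nearest member, Rgs9bp, at 0.372, and Rgs9 and Gnb5 were nearest to each other at 0.349, so these 3 were farther from any other member than the other 7 were.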

How the data were processed

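RNA-seq of 9 mouse retina libraries was used, 3 each of WT, rd10 given NS and rd10 given MSC-EVs. For every gene and library, the authors deposited an estimated count, not scaled to depth, and an FPKM value, scaled to transcript length and depth. The submitters' processing notes name fastp, Bowtie2, HISAT2, StringTie 1.3.1 and RSEM, with no role or order, and the build is not given in the sources used here. The design assumed counts; between 9.2% and 11.7% of the genes per library had decimals, and the counts were rounded.

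Pairs of groups, of 6 libraries each time, were compared with the quasi-likelihood test of edgeR 4.0.16 under R 4.3.3 (filterByExpr, TMM, glmQLFit with robust estimation, glmQLFTest), with p adjusted over all genes tested. The standard error was the absolute log2 fold change divided by the square root of F, and 95% intervals used the t distribution with the fit's degrees of freedom. For the rod scale, the geometric mean of rod counts replaced the library size. Ratios of FPKM were compared with exact permutation tests. The fits were tested on simulated data. Alternatives were DESeq2 1.42.0, limma 3.58.1 on log2(FPKM + 1), other scalings and filters, a joint fit, a replicate block, a Y-linked covariate and each library left out.

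The members and gene lists were chosen with earlier results of these data known. The text names the 10 members, up to 4 genes of largest change per list and those that moved against their list, Pde6b, the Y-linked genes and the nearest genes in profile (mean FPKM of at least 1 in WT, log2(CPM + 0.5)). Rd3 and Cngb3 were named with their lists' counts after their values were seen. Some genes that this rule covers are not reported here, and an alternative that rests on one of them is left out. Positions are from GENCODE M21 on GRCm38 and promoters from RefSeq on GRCm38.p6. Depth ran from 19491721 to 62532357 counts per library.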

Additional observations from a re-analysis of the deposited data

How the results depend on the processing

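The number of members differentially expressed between NS and WT was 8 to 10 in every alternative, between MSC-EVs and WT 8 to 10, and between MSC-EVs and NS 0. Rgs9 lost the fold limit for NS against WT with limma and without NS replicate 3. On the rod scale, NS against WT, the count of 1 became 6 with no fold limit and 2 with the sum of the rod list. The 6 members past the adjusted p there became 7 with the sum, and 4 to 6 without single libraries. There, Rgs9bp and Slc24a1 turned to 0.13 and 0.20 with the sum, and Gucy2f ran between -0.04 and 0.07 without single libraries. Between MSC-EVs and NS, values near 0 changed sign. Rgs9bp was -0.01 with upper-quartile normalization, Guca1a 0.10 and Rcvrn 0.26 with the Y-linked covariate. Without single libraries Guca1a ran from -0.12 to 0.10, Rcvrn from -0.26 to 0.09 and Rgs9bp from -0.07 to 0.14. On the rod scale Guca1a ran from -0.18 to 0.00 and Rgs9bp from -0.06 to 0.02. The ratios that did not overlap numbered 11 to 13 without single libraries. The cause was not tested. With the Y-linked covariate, the difference between MSC-EVs and NS rests in the main on MSC-EVs replicate 3, so only its effect sizes are given.

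The deviations of same-numbered libraries correlated at 0.09, 0.178 and 0.284 between MSC-EVs and NS and at -0.073 to 0.068 with WT. Libraries with different numbers were not compared, so these values cannot tell whether same-numbered libraries pair. With the replicate block, 9 members were called for NS against WT, 8 for MSC-EVs against WT and 0 for MSC-EVs against NS, and on the rod scale 1 and 0, so no count with the fold limit changed. On the rod scale, NS against WT, 4 members passed the adjusted p with the block in place of 6, since Gucy2e (0.0572) and Guca1a (0.0899) no longer did.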
